A study of Mus musculus with 6 samples.

Results

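The genes described here are the BTB-domain adaptors of the CUL3 ubiquitin ligase and their immediate partners. They were taken by symbol: every gene whose name begins with Klhl, Kctd, Kbtbd, Btbd or Zbtb followed by a digit, together with Cul3, Rbx1 and Spop. The rule found 103 of the 12718 genes measured: 27 Klhl, 17 Kctd, 7 Kbtbd, 10 Btbd and 39 Zbtb genes, and the 3 genes named singly. Genes of these families that were not among the 12718 could not be examined. Zbtb8os came in by its name alone, which records its position beside Zbtb8a, and does not encode a BTB protein. The study mapped RNA polymerase II along genes by ChIP-seq (sequencing of DNA recovered by chromatin immunoprecipitation), using an antibody against the N-terminal part of its largest subunit, RPB1. Adrenal glands came from 3 knockout (KO) female mice, labelled Armc5(-/-), and from 3 wild-type (WT) female mice. Both genotypes were 129 sv X CD1, were aged 10 to 14 months and received no agent that the labels name. The labels give no Cre driver or promoter for the Armc5 allele, and Armc5 itself was not analysed here. The 6 libraries carry 6 mouse numbers, so n = 3 mice per genotype, and the p-values measure the spread between mice.

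CUL3 is a scaffold that joins RBX1, the RING protein that recruits the ubiquitin-charged E2 enzyme, to a BTB-domain protein that selects the substrate. KLHL and KBTBD proteins add Kelch repeats to the BTB domain, SPOP adds a MATH domain, KCTD proteins carry a BTB-like tetramerisation domain, and most ZBTB proteins are zinc-finger transcription factors rather than ligase adaptors. ARMC5, an armadillo-repeat protein with a BTB domain, is itself a CUL3 adaptor that directs ubiquitylation of RPB1, and loss of ARMC5 is known from human primary bilateral macronodular adrenal hyperplasia.

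RPB1 was counted around the transcription start site (TSS), over the gene body and around the transcription end site (TES). Values are CPM, in which the libraries are brought to one common size, with TMM factors. Each region was scaled on its own. A change shared by most genes is removed by such scaling, so fold changes and intervals are relative to the other genes. A gene was called where its adjusted p was under 0.05 in edgeR's quasi-likelihood F test with Benjamini-Hochberg adjustment over all genes of that region. All 103 genes could be tested in each region. Library totals ran from 1133364 to 3406223 counts at the TSS, from 12419812 to 22523647 in the gene body and from 958001 to 2294430 at the TES. The mean count of the median member was 174 (TSS), 831 (gene body) and 81.8 (TES). KO replicate 1 and WT replicates 1 and 2 had the fewest counts, and in these 3 libraries the predicted gene Gm10800 took 11.7%, 10.9% and 25.1% of the TSS counts. WT replicate 2, the shallowest, was the highest of the 6 libraries for 36 members and the lowest for 35 members in the gene body. No source used here states how wide the TSS and TES windows were, and levels are therefore compared between genes only in the gene body, per kb. In the annotation 13 members overlap another measured gene, among them Zbtb46 (Zgpat) and Btbd19 (Tctex1d4). With these included, 29 lie within 1000 bases of one. Counts of such members may hold reads of the neighbour, which was not tested. In whole tissue, fewer cells of a type and less polymerase per cell cannot be told apart. All 8 cortex genes listed (among them Star, Cyp11a1 and Cyp11b1) and 6 of 7 chromaffin genes were in the tables, which by itself does not test the adrenal label.

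Of the 103 genes, Kctd12 was the only one called, and only at the TES. KCTD12 is an auxiliary subunit of the GABA-B receptor that binds G protein beta-gamma subunits. Kctd12 was 3.29-fold higher at its TES in KO glands. None of the measured Klhl, Kbtbd, Btbd or Zbtb genes was called in any region, nor was Cul3, Rbx1 or Spop. The members called were 0 of 103 at the TSS, where 0.339% of all genes tested were called, 0 in the gene body, where 0.252% were called, and 1 at the TES, where 0.915% were called. At an unadjusted p under 0.05, edgeR gave 2 TSS members (1.94%), 5 gene body members (4.85%) and 5 TES members (4.85%), against 5.57%, 5.05% and 6.85% of all genes. These shares lie near or below those of all genes. DESeq2 called 0, 1 and 1 members in the order TSS, body, TES, and limma-voom called 0, 0 and 1. Over all genes DESeq2 called 95, 179 and 108, and limma-voom called 36, 34 and 117, against 43, 32 and 116 in edgeR.

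**Figure D1:**
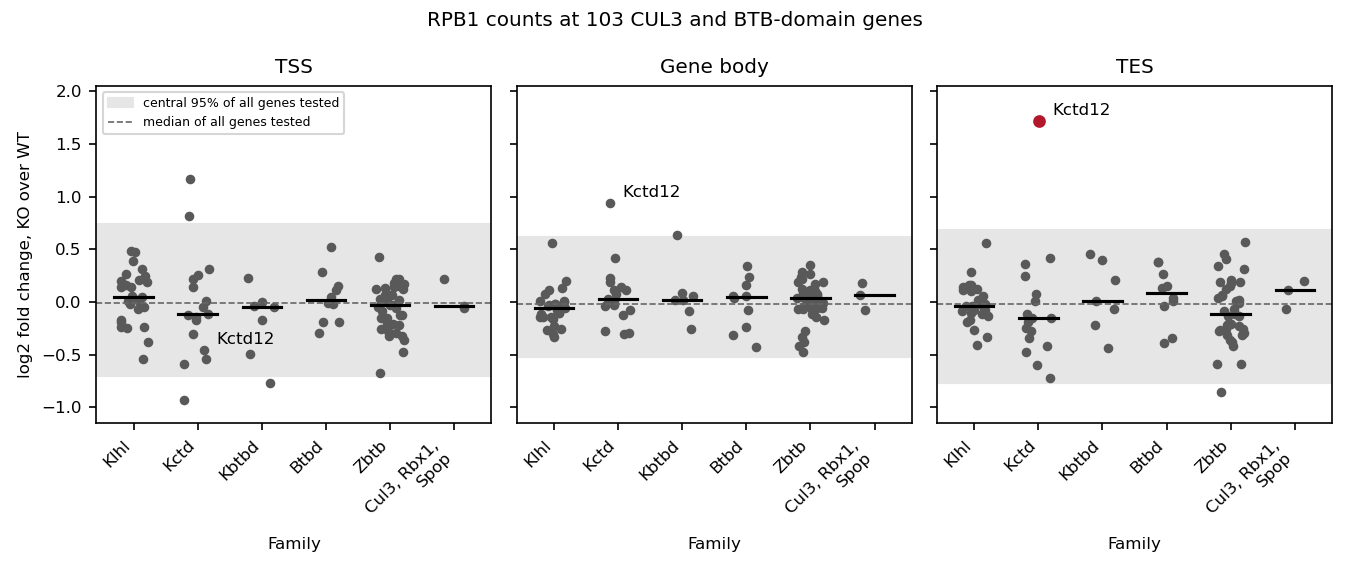
Log2 fold change of RPB1 counts, KO over WT, for each of the 103 genes by family (x axis) in the 3 regions; bars are family medians, the grey band holds the central 95% of all genes tested, the dashed line is the median of all genes, and the red point passed the test. Kctd12 at the TES stands at 1.72, above every other member in that region, where the next highest is 0.57.

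The promoters of Kctd12 and of the 3 core genes are shown because the results turn on these genes; they were chosen after their values were seen. Each line gives the 250 bases before the annotated start, 5′ to 3′ on the gene's own strand, from RefSeq on GRCm38.p6. The Kctd12 stretch lies at chr14:102982638-102982887 (minus strand), Cul3 at chr1:80340691-80340940 (minus strand), Rbx1 at chr15:81466066-81466315 (plus strand) and Spop at chr11:95413833-95414082 (plus strand). Capitals mark matches to GGGCGG, the GC box bound by Sp1, or to CCAAT, on either strand.

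Kctd12: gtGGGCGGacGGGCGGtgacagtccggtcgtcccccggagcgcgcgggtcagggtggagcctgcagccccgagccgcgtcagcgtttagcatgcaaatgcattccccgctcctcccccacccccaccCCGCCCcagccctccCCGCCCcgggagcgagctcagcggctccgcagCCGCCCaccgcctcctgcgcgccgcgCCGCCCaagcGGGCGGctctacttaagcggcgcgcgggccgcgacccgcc
Cul3: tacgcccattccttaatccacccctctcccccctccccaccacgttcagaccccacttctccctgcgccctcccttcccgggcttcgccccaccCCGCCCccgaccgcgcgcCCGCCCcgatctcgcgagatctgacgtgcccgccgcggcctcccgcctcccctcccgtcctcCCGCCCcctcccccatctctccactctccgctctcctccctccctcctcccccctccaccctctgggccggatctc
Rbx1: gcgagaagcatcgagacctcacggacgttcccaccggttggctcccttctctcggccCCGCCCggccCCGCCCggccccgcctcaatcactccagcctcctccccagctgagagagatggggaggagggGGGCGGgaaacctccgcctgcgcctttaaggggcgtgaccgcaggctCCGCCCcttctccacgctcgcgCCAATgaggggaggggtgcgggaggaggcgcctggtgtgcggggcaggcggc
Spop: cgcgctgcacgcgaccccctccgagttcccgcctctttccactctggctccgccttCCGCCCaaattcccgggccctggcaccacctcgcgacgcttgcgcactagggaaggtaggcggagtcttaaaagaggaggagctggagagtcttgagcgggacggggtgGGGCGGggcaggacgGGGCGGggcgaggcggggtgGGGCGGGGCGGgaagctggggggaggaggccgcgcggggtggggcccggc

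The Kctd12 stretch held 7 GC boxes, that of Cul3 held 3, that of Rbx1 held 4 with 1 CCAAT, and that of Spop held 5, of which some overlap. None of the 4 held the TATA box TATAAA, the cAMP response element TGACGTCA, the E-box CACGTG, or the extended ETS site CCGGAAG. A promoter was at hand for 85 of the 103 members and for 9911 genes in all. GGGCGG was found in 72.9% of member promoters, against 61.1% of all promoters, and CCGGAAG in 23.5% against 14.0%. CCAAT was found in 28.2% against 36.5%, TATAAA in 4.71% against 5.99%, TGACGTCA in 3.53% against 2.91% and CACGTG in 10.6% against 8.45%. The median GC content was 63.2% over the member promoters, against 60.4% over all promoters, and that of Kctd12 was 77.6%. By family, the medians were 65.4% for Zbtb, 65.0% for Kctd and 63.6% for Kbtbd, and lay below that of all promoters for Klhl (59.6%) and Btbd (58.6%). These matches are descriptions of the letters in these windows, without a test.

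Cul3, the scaffold, had 137, 133 and 167 CPM at the TSS in KO glands (replicates 1, 2 and 3) and 163, 134 and 157 CPM in WT glands. Its gene body held 145, 154 and 138 CPM in KO glands and 160, 137 and 165 CPM in WT glands. The genotypes overlapped in both regions. The log2 fold change was -0.06 at the TSS (95% interval -0.41 to 0.28) and -0.08 in the gene body (-0.39 to 0.23). At the TES Cul3 averaged 90.0 ± 14.9 CPM in KO glands and 93.3 ± 42.7 CPM in WT glands (SD, n = 3 each), a log2 fold change of -0.07 (-0.58 to 0.44). The WT spread at the TES runs between 49.0 CPM in replicate 2 and 134 CPM in replicate 1, so the end of Cul3 was measured less closely than its start or body. All 3 intervals of Cul3 lie within a 2-fold change either way.

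Rbx1, the RING subunit, averaged 159 ± 11.6 CPM at the TSS in KO glands and 163 ± 19.3 CPM in WT glands. Its log2 fold changes were -0.04 at the TSS (95% interval -0.38 to 0.29), 0.07 in the gene body (-0.53 to 0.66) and 0.20 at the TES (-0.26 to 0.66). Spop, the MATH-domain adaptor that selects several nuclear substrates, had 185, 201 and 193 CPM in the gene body in KO glands and 181, 151 and 180 CPM in WT glands. The 3 KO values of Spop lay above the 3 WT values there, and groups that do not overlap were found for 10.4% of all genes in the gene body. The gene body difference of Spop was 0.18 on the log2 scale (-0.13 to 0.49) and did not pass the test, with an adjusted p of 0.934 from edgeR. At its TSS and TES the genotypes overlapped, with log2 fold changes of 0.22 and 0.11. For the core genes a change of 2-fold or more, relative to the other genes of the region, lay outside the 95% interval in each region.

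**Figure D2:**
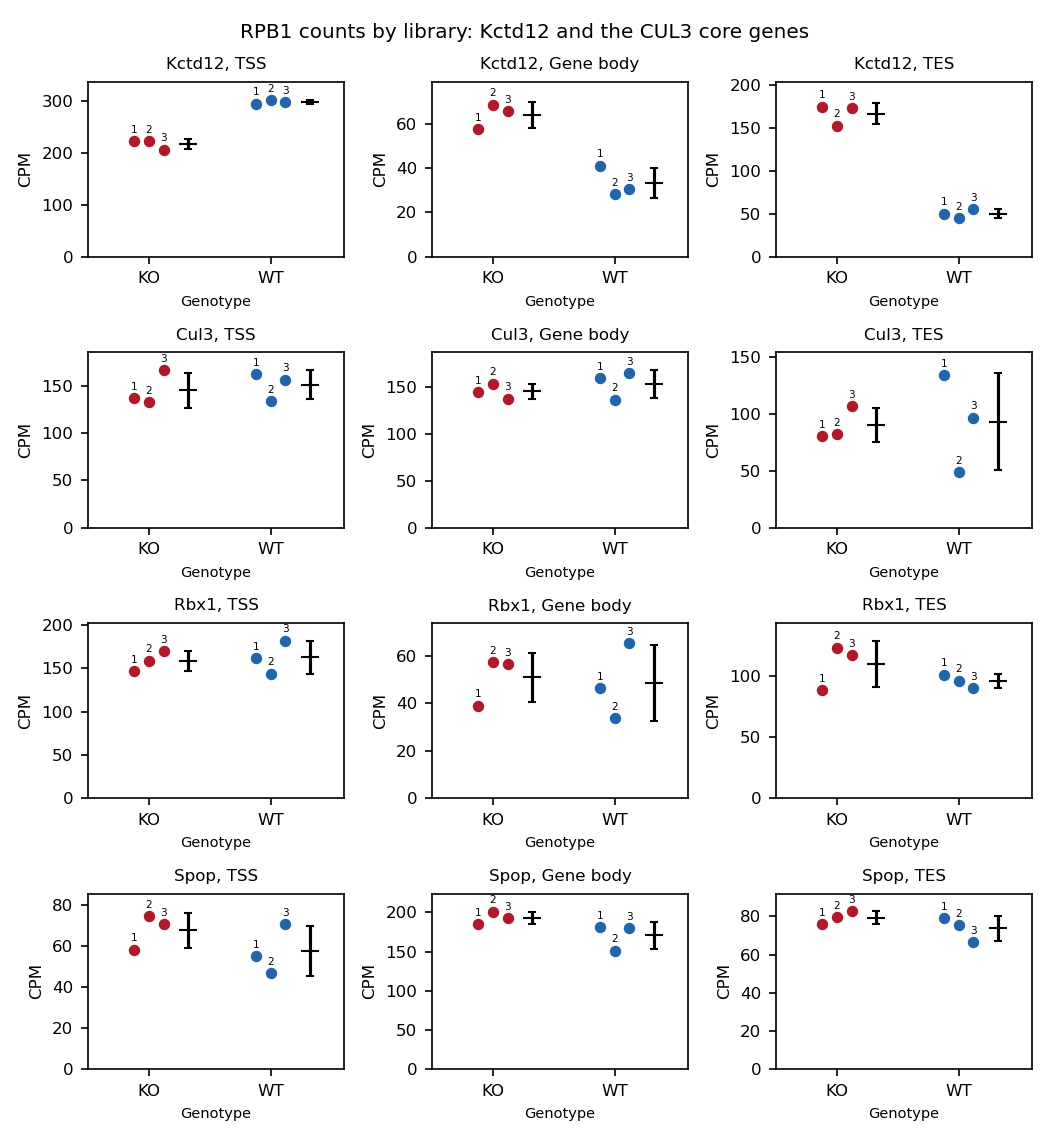
RPB1 CPM (y axis) in each KO and WT library in each region of Kctd12, Cul3, Rbx1 and Spop; numbers are replicates, and bars are the mean ± SD of 3 mice. Kctd12 has separate genotypes in each region, lower in KO at the TSS and higher in KO over the body and TES, while Cul3 and Rbx1 overlap throughout.

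Kctd12 spans 6.057 kb at chr14:102976581-102982637. At its TES it had 175, 153 and 173 CPM in KO glands (228, 335 and 351 counts) and 50.3, 45.1 and 55.5 CPM in WT glands (85, 46 and 127 counts). Every KO library lay well above every WT library. The means were 167 ± 11.9 CPM in KO glands and 50.3 ± 5.22 CPM in WT glands (SD, n = 3 each), and the log2 fold change was 1.72 ± 0.24 (SE; 95% interval 1.24 to 2.2; edgeR adjusted p = 9.21e-06). Calls for a higher TES count in KO were made for 0.82% of all genes. The TES difference of Kctd12 passed the test in all 17 alternative settings, which include leaving out each library, with log2 fold changes between 1.54 and 1.8.

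In the gene body Kctd12 had 57.5, 68.5 and 65.7 CPM in KO glands and 41.1, 28.3 and 30.4 CPM in WT glands. The genotypes did not overlap, and the log2 fold change was 0.94 ± 0.18 (95% interval 0.53 to 1.35), but the adjusted p from edgeR was 0.112. The gene body difference passed in 1 of 17 alternatives, with DESeq2 (adjusted p = 0.000645). That fit called 179 genes in all in the gene body, against 32 in edgeR. At the TSS the order of the genotypes was the opposite, with 223, 223 and 207 CPM in KO glands and 296, 303 and 299 CPM in WT glands. These TSS values were separate too, at a log2 fold change of -0.46 ± 0.15 (-0.78 to -0.14; edgeR adjusted p = 0.51), and passed in 0 of 17 alternatives. Kctd12 thus had lower TSS values beside higher gene body and TES values in KO glands, and the TES difference alone passed.

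The TSS to gene body ratio of CPM at Kctd12 was 3.88, 3.25 and 3.15 in KO glands and 7.19, 10.7 and 9.81 in WT glands. That is a log2 change of -1.41 ± 0.21 (SE), for which the unadjusted p of 0.000131 became 0.192 after adjustment in edgeR's interaction test. The TES to gene body ratio was 3.04, 2.23 and 2.63 in KO glands and 1.22, 1.59 and 1.82 in WT glands, a log2 change of 0.77 ± 0.21 with an adjusted p of 0.558. Both ratios were separate between genotypes, and neither passed. The TSS ratio passed in 1 of 12 alternatives, where the depth of the library entered the fit (adjusted p = 0.00555); the TES ratio passed in 0 of 12.

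Marker lists of other cell types were summed beside Kctd12. The capsule and fibroblast list (4 of 7 genes in the tables) summed to between 85.6 and 120 TES CPM in KO glands and between 140 and 382 in WT glands, and Col3a1, Mgp and Pdgfra were called lower. Over all genes, edgeR called 12 of 12680 lower in KO at the TES. In the gene body the capsule list summed to between 87.9 and 109 CPM in KO glands and between 123 and 332 in WT glands, with 0 called. None of its 4 genes lay above 0 in any region. The macrophage list (5 of 8 genes, with its defining Csf1r, Adgre1 and Aif1 not analysed here) summed to between 647 and 701 TES CPM in KO glands and between 467 and 584 in WT glands, with 0 called by edgeR and 0 at an unadjusted p under 0.05. The chromaffin list summed to between 827 and 2450 TES CPM in KO glands and between 514 and 1460 in WT glands, and at the TSS to between 136 and 224 in KO glands and between 114 and 130 in WT glands. The cortex, endothelium, adipocyte and Schwann sums overlapped between genotypes at the TES. None of the 8 lymphocyte or 5 kidney tubule genes was in the tables. The part of these cell types in the Kctd12 result was not tested.

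The rest of the Kctd family was measured beside Kctd12. Kctd8, another GABA-B auxiliary subunit, had 20.3, 20.8 and 9.15 CPM at the TSS in KO glands and 5.99, 10.3 and 6.72 CPM in WT glands. These values rest on 36, 76 and 25 counts in KO glands and 11, 10 and 21 counts in WT glands. KO replicate 3 lay below WT replicate 2, and the log2 fold change of 1.17 ± 0.43 did not pass (edgeR adjusted p = 0.718). Its gene body and TES gave -0.30 and -0.47, with overlapping genotypes. Kctd19, a gene of meiosis, had 9.57, 20.5 and 15.7 CPM at the TSS in KO glands and 8.17, 9.31 and 8.96 CPM in WT glands, separate but not called (0.82 ± 0.38). The Kctd19 TSS counts were small, 17, 75 and 43 in KO glands and 15, 9 and 28 in WT glands. Its gene body, at 15.7 ± 6 CPM in KO glands and 19.3 ± 9.10 CPM in WT glands, overlapped. Kctd7, which is mutated in a human progressive myoclonic epilepsy, was separate in the gene body, with 26.8, 27.4 and 31.3 CPM in KO glands and 24.3, 18.5 and 21.0 CPM in WT glands (log2 fold change 0.42 ± 0.16, edgeR adjusted p = 0.873).

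Kctd12b, the close paralog of Kctd12 and likewise a GABA-B auxiliary subunit, gave log2 fold changes of -0.93 ± 0.63, -0.28 ± 0.21 and -0.60 ± 0.40 in the order TSS, body, TES, with overlapping genotypes. Its TSS counts were small, between 8 and 22 per library. At the TES it had 21.5, 16.5 and 14.8 CPM in KO glands and 31.9, 31.4 and 17.1 CPM in WT glands. None of its 3 differences passed, and all 3 were below 0, where the Kctd12 values of the body and TES were above 0. Reads of close paralogs may be split by the counting, which no source used here describes. Kctd11, an adaptor that targets HDAC1 and restrains Hedgehog signalling, gave -0.59 ± 0.36 at its TSS, and its body gave 0.23 ± 0.24. Kctd17, known for degrading trichoplein during ciliogenesis, gave -0.34 ± 0.23 at the TES, and Kctd9 gave 0.42 ± 0.25 there. Kctd10 was lower in separate groups at the TSS by a small margin, with 193 ± 10.9 CPM in KO glands and 208 ± 3.28 CPM in WT glands. The family medians of the log2 fold change were -0.11, 0.03 and -0.15 in the order TSS, body, TES, against -0.01, -0.02 and -0.02 over all genes.

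Of 7 GABA-B receptor and G protein partner genes listed, 5 were among the genes measured, and Gabbr2 and Gnb5 were not. These 5 held no call in edgeR and none at an unadjusted p under 0.05 in any region. Gabbr1, a GABA-B receptor subunit, averaged 39.6 ± 6.14 CPM at the TES in KO glands and 43.0 ± 11.1 CPM in WT glands, with a log2 fold change of -0.08. Gnb1, a G protein beta subunit, gave 0.09 there. The 5 measured partners were thus not called beside Kctd12, and Gabbr2 and Gnb5 could not be examined.

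The Klhl genes, the Kelch adaptors, lay close to 0 in each region. Family medians were 0.05 (TSS), -0.06 (gene body) and -0.04 (TES), and 20 of the 27 gene body values were negative (74.1%), against 53.7% of all genes. Over the scalings tried, the Klhl number ran between 15 and 24 (55.6% to 88.9%), and the share of all genes between 45.7% and 71.9%. Scaling all regions jointly moved the median of all genes to 0.24 at the TSS and to -0.12 in both other regions. The Klhl gene body median differed from that of all genes by -0.04 or -0.05 under each scaling tried. WT replicate 2, the library with the fewest counts, was the highest of the 6 in the gene body for most Klhl genes. It was the lowest for Klhl2, Klhl9, Klhl21, Klhl24 and Klhl35. The part of this library in the Klhl share was not tested. In the gene body, 26 of the 27 Klhl genes had a 95% interval within a 2-fold change either way (96.3%), against 86.9% of all genes.

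Klhl3, which directs WNK kinases to CUL3, had 9.57, 11.0 and 11.7 CPM at the TSS in KO glands and 13.6, 21.7 and 13.1 CPM in WT glands. The groups were separate, as were those of 11.4% of all genes at the TSS, and the log2 fold change of -0.54 ± 0.35 did not pass. The gene body and TES of Klhl3 overlapped between genotypes, at -0.30 and 0.14. Klhl6, a gene of B cells, was lower in separate groups in the gene body, with 37.9, 33.3 and 38.7 CPM in KO glands and 46.0, 51.3 and 40.5 CPM in WT glands (-0.33 ± 0.15, not called). Klhl12, known for ubiquitylating SEC31 in collagen export, gave 0.05, -0.27 and -0.04 across the 3 regions, with overlap in each. Klhl7, which is mutated in a human retinitis pigmentosa, had a gene body log2 fold change of -0.05 ± 0.12. Klhl32 was higher in separate groups at the TSS, with 23.6, 24.9 and 24.1 CPM in KO glands and 22.9, 12.4 and 18.9 CPM in WT glands, at 0.39 ± 0.30, also not called.

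Klhl21, with Klhl9 and Klhl13 a mitotic adaptor for Aurora B, had 91.2, 86.8 and 125 CPM at the TES in KO glands and 58.5, 55.9 and 89.2 CPM in WT glands. WT replicate 3 reached the KO range, and the log2 fold change of 0.56 ± 0.24 did not pass (edgeR adjusted p = 0.544). Zbtb48, which encodes the telomere-binding protein TZAP, lies 2096 bases away on chromosome 4. It had almost the same TES counts: 119, 188 and 265 in KO glands and 103, 58 and 201 in WT glands, against 119, 190 and 255 in KO glands and 99, 57 and 204 in WT glands for Klhl21. Their TES values of 0.56 and 0.57 may not be separate observations, and whether their counting windows overlap was not tested. In the gene body Zbtb48 was separate, with 28.4, 28.4 and 33.9 CPM in KO glands and 22.5, 23.5 and 25 CPM in WT glands, at 0.35 ± 0.15 (edgeR adjusted p = 0.934).

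Klhl9 gave 0.27 ± 0.18 at its TSS and 0.01 ± 0.18 over its body, and Klhl13 gave 0.03 ± 0.29 and -0.23 ± 0.28; reads of these paralogs may be split. Klhl36 gave 0.47 ± 0.23 at the TSS and Klhl42 gave -0.25 ± 0.17, and neither was called. Klhl26 in the gene body stood at 0.20 ± 0.20 and Klhl29 at the TES at -0.27 ± 0.23. All of these Klhl values had overlapping genotypes.

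Among the Kbtbd genes, Kbtbd11 was lower in KO in separate groups in each region, and it passed the test in none. It had 9.01, 9.04 and 6.22 CPM at the TSS in KO glands and 14.7, 18.6 and 9.60 CPM in WT glands. The gene body held 28.7, 32 and 32 CPM in KO glands and 35.3, 39.2 and 36.9 CPM in WT glands. At the TES it had 29.1, 21.0 and 26.1 CPM in KO glands and 35.5, 39.2 and 29.3 CPM in WT glands. The 3 log2 fold changes were -0.77 ± 0.40, -0.26 ± 0.14 and -0.44 ± 0.29 (SE), with adjusted p from edgeR of 0.949, 0.934 and 0.9. The TSS counts behind this were small, between 16 and 33 per library.

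Kbtbd8, whose human protein ubiquitylates TCOF1 and NOLC1 in neural crest specification, was higher in separate groups in the gene body, with 22.8, 35.6 and 23.8 CPM in KO glands and 17, 19.8 and 16.0 CPM in WT glands. Its log2 fold change of 0.64 ± 0.21 (95% interval 0.15 to 1.13) did not pass (edgeR adjusted p = 0.661). The TES gave 0.46 ± 0.36 with overlap, and the TSS held 0 to 21 counts per library, too few to place it. Kbtbd2, which targets the p85 subunit of PI3 kinase, was lower in separate groups at the TSS, with 172 ± 2.86 CPM in KO glands and 193 ± 12.7 CPM in WT glands, while its gene body gave 0.02. Kbtbd6 and Kbtbd7, paralogs that together direct TIAM1 to CUL3, overlapped in the TSS and gene body tables, and Kbtbd7 was separate at the TES (31.0 ± 1.97 CPM in KO glands, 26.5 ± 2.73 CPM in WT glands, log2 fold change 0.21 ± 0.30). Kbtbd3 and Kbtbd4 gave 0.40 ± 0.26 and -0.22 ± 0.23 at the TES. The family medians were -0.05, 0.02 and 0.01.

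None of the 10 Btbd genes was called or had separate groups in any region, where 11.4% (TSS), 10.4% (gene body) and 11.5% (TES) of all genes were separate. Btbd9, which is associated with human restless legs syndrome, had 1 library that stood apart. At the TSS it had 420, 427 and 317 CPM in KO glands and 375, 365 and 84.8 CPM in WT glands, and in the gene body 828, 864 and 936 CPM in KO glands and 854, 894 and 473 CPM in WT glands. WT replicate 3 stood far below the other 5 libraries in both regions. At the TES the same library was the highest, with 101, 126 and 145 CPM in KO glands and 157, 108 and 204 CPM in WT glands. The TSS log2 fold change was 0.52 ± 0.42 with all libraries, 0.07 without WT replicate 3, and 2.14 (edgeR adjusted p = 0.00558) when only the 3 libraries with the most counts were kept, where WT replicate 3 is the lone WT library.

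Btbd3, which orients dendrites in the cortex of the brain, gave -0.43 ± 0.29 in the gene body, and Btbd11 gave -0.31 ± 0.30. In both, WT replicate 2 was the highest of the 6 libraries. Btbd19 stood at 0.34 ± 0.18 in the gene body, Btbd6 at -0.29 ± 0.19 at the TSS, Btbd10 at 0.38 ± 0.24 at the TES and Btbd8 at 0.27 ± 0.41 there. The family medians were 0.02, 0.05 and 0.08.

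**Figure D3:**
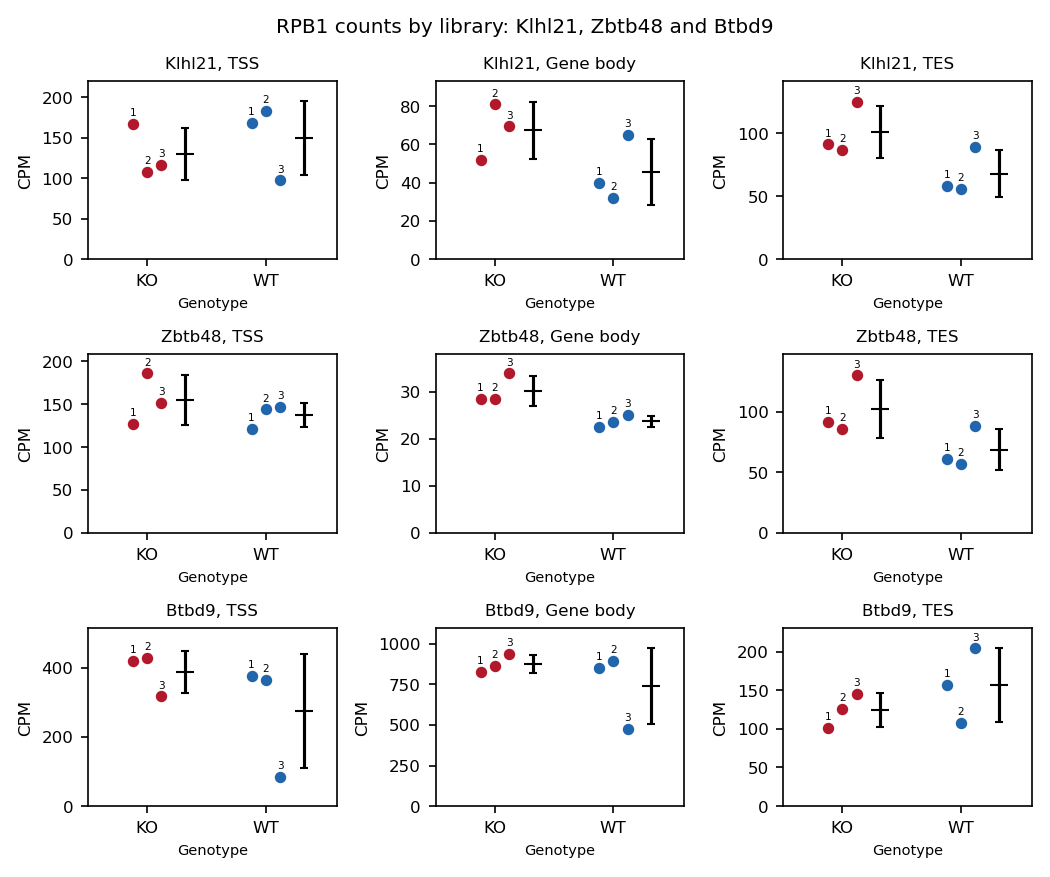
RPB1 CPM (y axis) in each KO and WT library in each region of Klhl21, Zbtb48 and Btbd9; numbers are replicates, and bars are the mean ± SD of 3 mice. The TES panels of the neighbours Klhl21 and Zbtb48 are nearly the same, and Btbd9 at the TSS lies between 317 and 427 CPM in KO glands and at 84.8 CPM in WT replicate 3.

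The Zbtb genes, mostly transcription factors, held no call among 39 members. Zbtb46, a factor of classical dendritic cells and endothelium, had 69.8, 67.6 and 69.8 CPM at the TES in KO glands and 79.2, 114 and 119 CPM in WT glands. Its gene body held 113, 122 and 110 CPM in KO glands and 137, 177 and 135 CPM in WT glands. The genotypes were separate in both, at log2 fold changes of -0.59 ± 0.23 and -0.38 ± 0.15, with adjusted p from edgeR of 0.436 and 0.873, and its TSS gave -0.28 ± 0.19 with overlap. The endothelial list (5 of 7 genes in the tables, 0 called) summed to between 322 and 362 TES CPM in KO glands and between 337 and 430 in WT glands, and its part in the Zbtb46 values was not tested.

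Zbtb39 was also separate at the TES, with 71.3, 73.1 and 64.4 CPM in KO glands and 99.9, 130 and 86.2 CPM in WT glands (-0.59 ± 0.23, edgeR adjusted p = 0.443), and its gene body overlapped at -0.14 ± 0.15. Zbtb9 was separate at the TES on small counts, between 18 and 38 per library (-0.85 ± 0.54), and its TES to gene body ratio of 0.246 ± 0.0471 in KO glands and 0.467 ± 0.124 in WT glands had an adjusted p of 0.793. Higher values in separate groups at the TES were found for Zbtb22, with 260 ± 41.4 CPM in KO glands and 189 ± 38.0 CPM in WT glands, and for Zbtb12, with 312 ± 28.1 CPM in KO glands and 247 ± 24.1 CPM in WT glands. Zbtb12 was separate in the gene body too, with 46.2 ± 2.70 CPM in KO glands and 38.3 ± 3.50 CPM in WT glands. None of these 4 genes passed in any region. Zbtb22 lies 153 bases from Tapbp, and the part of that neighbour in its counts was not tested.

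Zbtb5 was separate in the gene body at 0.28 ± 0.13, and Zbtb8a gave -0.42 ± 0.19 there with overlap. Zbtb24, whose human gene is mutated in ICF syndrome, gave 0.22 ± 0.18 at the TSS, and Zbtb42 gave -0.47 ± 0.25. Zbtb1, a regulator of lymphoid development, gave -0.32 ± 0.19 at the TSS, and it overlaps Zbtb25 in the annotation, which gave -0.21 there. Zbtb26 and Zbtb6 lie 1249 bases apart and had nearly equal TSS counts (160, 431 and 399 against 162, 405 and 381 in KO glands, and 162, 81 and 469 against 170, 85 and 443 in WT glands), so their starts may share reads. Separate groups that did not pass were also found for Zbtb14 (-0.29), Zbtb25 (-0.21) and Zbtb44 (-0.20), each lower at the TSS, for Zbtb3 (0.19), higher in the gene body, and for Zbtb24 (0.12) and Zbtb43 (0.19), higher at the TES. The Zbtb medians were -0.03, 0.04 and -0.11 across the 3 regions.

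**Figure D4:**
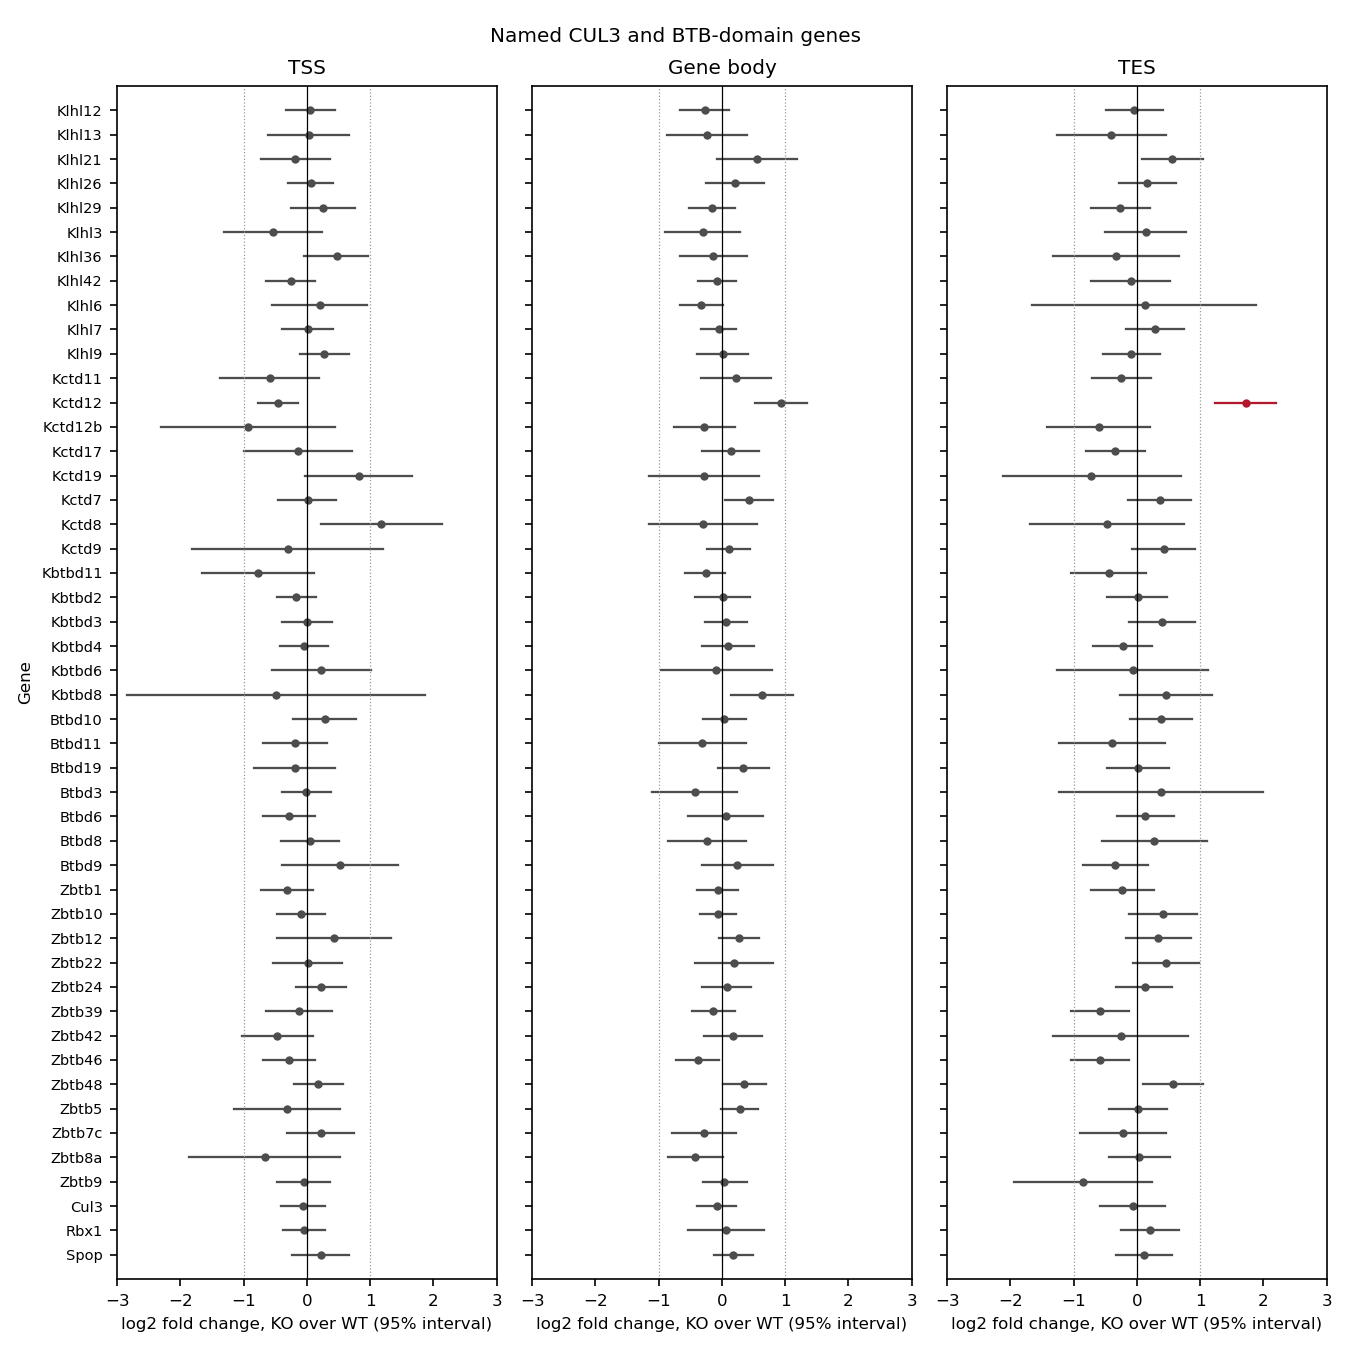
Log2 fold change of RPB1 counts, KO over WT (x axis), with its 95% interval for each named gene (rows) in the 3 regions; dotted lines mark a 2-fold change and red marks the value that passed the test. The Kctd12 interval at the TES runs from 1.24 to 2.2, wholly beyond the 2-fold line.

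Counting over all members, 10 had separate genotypes at the TSS (9.71%), against 11.4% of all genes, with 2 members higher in KO (1.94%, against 6.47% of all genes) and 8 lower (7.77%, against 4.93%). In the gene body 11 members were separate (10.7%), against 10.4% of all genes, with 8 higher (7.77%, against 6.51%) and 3 lower (2.91%, against 3.87%). At the TES 10 members were separate (9.71%), against 11.5% of all genes, with 6 higher (5.83%, against 6.69%) and 4 lower (3.88%, against 4.83%). Without regard to direction, the members' shares were near those of all genes. At the TSS the members' share was below that of all genes for higher values and above it for lower values, on counts of 2 and 8 and without a test. The 95% interval lay within a 2-fold change either way for 79 TSS members (76.7%), 96 gene body members (93.2%) and 79 TES members (76.7%), against 71.2%, 86.9% and 73.4% of all genes. The gene body thus bounded most members more closely than either end. The median log2 fold change of the 103 members was -0.02 (TSS), 0.01 (gene body) and -0.04 (TES), against -0.01, -0.02 and -0.02 over all genes.

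Neither ratio of RPB1 between regions was called for a member. The TSS to gene body ratio was called for 0% of 12679 genes in edgeR's interaction test and gave 2 members at an unadjusted p under 0.05, Kctd12 and Kctd8, against 462 genes in all (3.64%). The Kctd8 ratio was 0.151, 0.295 and 0.0875 in KO glands and 0.047, 0.0547 and 0.103 in WT glands, overlapping, at a log2 change of 1.30 ± 0.50. It rests on TSS counts between 10 and 76 per library. The TES to gene body ratio was called for 0.0158% of 12677 genes and gave 2 members at an unadjusted p under 0.05, Kctd12 and Zbtb9, against 722 genes (5.7%). The median log2 change over the members was -0.02 for the TSS ratio and -0.06 for the TES ratio, against -0.02 and -0.01 over all genes.

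Levels per length differed widely among the members. In gene body CPM per kb of gene span, Zbtb12 was highest, at 20.0 ± 1.17 in KO glands and 16.6 ± 1.52 in WT glands, followed, by the mean over all 6 libraries, by Zbtb9, Zbtb6, Kctd11 and Kctd12. Kctd12 stood at 10.6 ± 0.943 CPM per kb in KO glands, above Kctd11 (9.75), and at 5.49 ± 1.14 in WT glands, below genes such as Btbd3 (7.51). Zbtb9, at 15.3 ± 1.05 in KO glands and 14.8 ± 2.01 in WT glands, had lower means than Zbtb12, and their SD ranges overlapped in WT glands only. By the same mean the lowest were Kctd8, at 0.444 ± 0.138 in KO glands and 0.547 ± 0.266 in WT glands, and Kbtbd6, at 0.538 ± 0.104 in KO glands and 0.574 ± 0.232 in WT glands. In KO glands alone Kctd19, at 0.513 (0.627 in WT glands), lay below Kbtbd6. Over all libraries the median member held 1.98 CPM per kb, against 1.74 for all genes with an annotated span, and 56 of the 103 lay above that value. By family the medians were 2.78 for Zbtb, 2.19 for Btbd, 1.89 for Kbtbd, 1.76 for Kctd and 1.27 for Klhl, with Rbx1 at 4.94, Spop at 2.29 and Cul3 at 1.98.

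**Figure D5:**
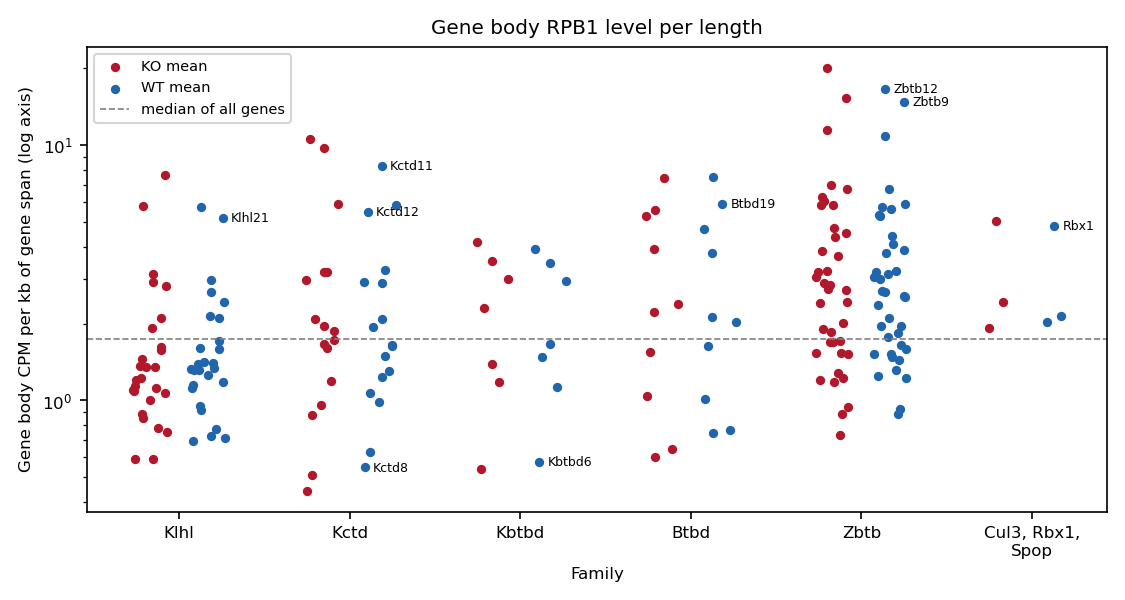
Mean gene body RPB1 level in CPM per kb of gene span (y axis, log scale) for each of the 103 genes by family (x axis), with KO means in red and WT means in blue, and the median of all genes dashed. Zbtb12 and Zbtb9 are the highest in both genotypes, Kctd8 and Kbtbd6 are among the lowest, and KO and WT means run over nearly the same range in every family.

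Beyond the adaptors, lists of the wider pathway were counted in the same fits. Other BTB proteins outside the symbol rule (26 of 29 in the tables), other cullins and RING proteins (10 of 13), neddylation and cullin exchange genes (11 of 13), the COP9 signalosome that removes NEDD8 from cullins (9 of 9) and known CUL3 substrates (18 of 19) held 0 calls in each region, where 0.339% (TSS), 0.252% (gene body) and 0.915% (TES) of all genes were called. Over these lists and the receptor partners together (79 genes), edgeR gave an unadjusted p under 0.05 for 6 at the TSS (7.59%), for 2 over the body (2.53%) and for 5 at the TES (6.33%), against 5.57%, 5.05% and 6.85% of all genes. The median log2 fold changes of the 5 lists lay between -0.12 and 0.06. Skp1a, the CUL1 adaptor, had the smallest adjusted p of these genes, with 85.9, 107 and 104 CPM in the gene body in KO glands and 56.9, 51.1 and 58.8 CPM in WT glands. Its groups were separate, at a log2 fold change of 0.83 ± 0.14 and an edgeR adjusted p of 0.0872, which did not pass.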

How the data were processed

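Per the labels, RPB1 was immunoprecipitated from adrenal glands of 6 mice. The authors deposited raw read counts per gene for the TSS, gene body and TES, with 1 column per library and no normalization. Per the submitters' processing notes, the build was GRCm38 (mm10) and the tools named were BWA, Trimmomatic, Picard, bcl2fastq 2.20, HOMER, MACS2, limma and edgeR, whose roles are not stated. No source used here gives the counting tool, window widths or an input library.

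Each table was tested whole in edgeR 4.0.16 (R 4.3.3) with TMM scaling, filterByExpr (minimum count 10, minimum total 15), the quasi-likelihood F test of KO against WT and Benjamini-Hochberg adjustment. Ratios were tested by the interaction of region with genotype, blocking on library, and 95% intervals use the moderated degrees of freedom. Values are CPM as mean ± SD over 3 mice, with gene body CPM divided by the RefSeq span (GRCm38.p6; 12523 of 12718 symbols matched). Promoter motifs were searched on both strands.

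The members, lists and tests were chosen with earlier results of these data known. Named genes are the 3 core genes, every called member, per family and region up to 2 members in each direction with the smallest p, per family the 2 highest and 1 lowest per kb, and per ratio the 3 smallest p in each direction; genes with separate groups, neighbouring pairs, other cell type or pathway genes and the promoters shown were added after their values were seen. Alternatives were RLE, table total and joint scaling, other filters (none, or 20 counts in 3 libraries), DESeq2 1.42.0, limma-voom (limma 3.58.1), a replicate block, mouse number series, depth class, and leaving out each library.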

Additional observations from a re-analysis of the deposited data

How the results depend on the processing

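The number of members called kept its value in 72 of 75 alternatives. The exceptions were 1 member at the TSS (Btbd9) with the 3 deepest libraries only, an alternative added after the data were seen whose lone WT library is assumed to vary like the 2 KO libraries, 1 in the gene body with DESeq2 and 1 for the TSS ratio with depth class as a covariate (both Kctd12). Calls over all genes ran from 5 to 158 at the TSS, 0 to 179 in the gene body and 61 to 194 at the TES, and from 0 to 27 and 0 to 15 for the TSS and TES ratios. Some gene body and ratio alternatives called no gene at all. A count of 0 members followed from that, so these alternatives add nothing to the 72. Of 1299 other values of named members, 32 changed sign, all of members that were not called. With table totals the TSS gave 0.04 for Cul3 and 0.06 for Rbx1. Joint scaling gave 0.18 for Cul3, 0.20 for Rbx1, 0.09 for Kbtbd2 and 0.09 for Btbd11 at the TSS, and -0.02 for Rbx1 and -0.01 for Kbtbd4 in the gene body. These scalings also moved the median of all genes, to 0.09 (table totals) and 0.24 (joint) at the TSS and to -0.12 (joint) in the gene body, and relative to it these members kept their direction. Depth class gave, in the gene body, -0.12 for Rbx1, -0.02 for Kbtbd4, 0.09 for Kctd8 and 0.19 for Kbtbd6. The deepest libraries gave 0.05 for Btbd11 (TSS) and, for the body, -0.20 for Rbx1, -0.07 for Kbtbd4, 0.43 for Kctd8, 0.53 for Kbtbd6 and 0.08 for Btbd11. Limma-voom gave 0.05 for Cul3 at the TES. The cause of the sign changes with depth class, the deepest libraries and limma-voom was not tested. Leaving out each library gave ranges of -0.17 to 0.00 (Cul3, TSS), -0.12 to 0.05 (Rbx1, TSS), -0.13 to 0.34 (Rbx1, gene body), -0.40 to 0.25 (Kbtbd6, gene body), -0.61 to 0.10 (Kctd8, gene body), -0.53 to 0.05 (Btbd11, gene body), -0.36 to 0.27 (Cul3, TES) and -0.41 to 0.00 (Kbtbd4, TES).

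Whether replicate numbers pair the mice was not settled. Same-numbered deviations correlated at 0.45, -0.22 and 0.38 (TSS), 0.07, -0.6 and 0.28 (gene body) and 0.03, -0.3 and 0.22 (TES). KO replicate 1 also correlated with WT replicate 2, another library with few counts, at 0.39 (TSS), 0.72 (gene body) and 0.48 (TES). These correlations do not separate pairing from depth, so they cannot decide it. A replicate block gave 0, 0 and 1 members called in the order TSS, body, TES, and 0 for both ratios, with Cul3 at 0.03 at the TES; over all genes it called 100, 0 and 194, against 43, 32 and 116 without it. Not every mouse correlated best with its own number. KO replicate 1 and WT replicate 1 carry mouse numbers that begin with the letter C, and the other 4 mice carry numbers without it. The series was inferred from this letter alone. With the series in the model the members called were 0, 0 and 1, and the calls over all genes 75, 0 and 151. Depth limits the ends most: 6 members at the TSS and 2 at the TES had under 10 counts in some library.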
